A study of Mus musculus with 3 samples.

Results

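The protein part of the cytosolic ribosome is encoded in the mouse by a set of genes with the prefixes Rps, for the small subunit, and Rpl or Rplp, for the large subunit. All 84 genes of the GENCODE M21 annotation that are classed as protein-coding and carry such a symbol, among 81881 features of the gene tables and 55536 annotated genes, are described here. They comprise 32 small subunit and 52 large subunit genes. Of these, 77 are the core genes and 7 are paralogs of core genes (Rpl3l, Rpl7l1, Rpl10l, Rpl22l1, Rpl36al, Rpl39l and Rps27l). The members were chosen by symbol and gene class and not by a measured value. They lie on 19 chromosomes, with 14 of them on chromosome 7.

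The RNA came from C57BL/6J mouse macrophages grown from bone marrow, primary cells that were given lipid A, the lipid part of bacterial endotoxin, at 100 ng/ml for 120 min. Total RNA of the cytosolic fraction was depleted of ribosomal RNA and sequenced in 3 libraries of 1 group, which the labels number as biological replicates 1, 2 and 3. There is no untreated group and no other fraction, so the values are levels in stimulated cells, and no response to lipid A can be read from them. The libraries carry the same donor identifier and are not said to be separate animals, so the spread between them may be technical. In bulk RNA of this kind, fewer cells and less RNA per cell cannot be told apart. The libraries held 31152786, 114031592 and 59693298 expected counts. Macrophage identity was as labelled, with 10 of 10 macrophage markers at a TPM (the deposited level, scaled by length to a fixed sum per library) of at least 1 in every library and a summed TPM of 7399 to 8026. None of the 5 T cell, 5 B cell, 4 erythroid and 4 fibroblast markers reached that level, and 2 of 5 neutrophil markers did (S100a8 and S100a9).

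Ribosomal proteins are needed in near-equal numbers, since most occur once in each ribosome, and they are among the most abundant mRNAs of a growing cell. In vertebrates their mRNAs belong to the TOP class. They begin with a C followed by an unbroken run of pyrimidines, the 5′ terminal oligopyrimidine tract, through which the kinase mTOR and the RNA-binding protein Larp1 set how fast they are translated. Many of these genes also carry small nucleolar RNAs, guides for the chemical modification of ribosomal RNA, in their introns. Their short and stable mRNAs have been copied back into the genome many times, which leaves processed pseudogenes that differ from the parent gene by few bases or none.

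The next lines show the 30 bases around the start of transcription of 6 highly expressed genes, 3 of each subunit, and then of 4 expressed paralogs, because the TOP tract is read from this place. They are RefSeq sequences of build GRCm38.p6 on the strand of the gene, the first 10 bases lie before the annotated start, and capitals mark the longest run in each window that consists of a C and at least 4 pyrimidines after it and begins within 10 bases of the start.
Rps12: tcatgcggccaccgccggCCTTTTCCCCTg
Rps27: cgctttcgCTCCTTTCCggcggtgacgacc
Rps28: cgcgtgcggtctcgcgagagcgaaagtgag
Rpl41: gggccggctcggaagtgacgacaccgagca
Rpl10: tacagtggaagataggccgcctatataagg
Rpl38: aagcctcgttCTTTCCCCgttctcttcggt
Rps27l: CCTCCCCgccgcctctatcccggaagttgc
Rpl22l1: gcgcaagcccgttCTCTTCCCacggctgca
Rpl36al: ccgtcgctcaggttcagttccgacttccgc
Rpl7l1: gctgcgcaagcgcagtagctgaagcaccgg

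In Rpl38 (the window is chr11:114668570-114668599 on the plus strand) the run began at the annotated start itself. In Rps27 (chr3:90213629-90213658, minus strand) it began before the start, and in Rps12 (chr10:23787190-23787219, minus strand) after it. No run that begins there was in the windows of Rps28, Rpl41 and Rpl10. The window rests on 1 annotated start for each of these genes, and a start a few bases away would change the reading. Rps27l has a further annotated start, not printed, whose window (chr9:66946403-66946432, plus strand) held no such run. Of the 84 members, 64 had a promoter in the RefSeq table. A C followed by at least 4 bases that are each C or T, within 10 bases of a start, was found in 39 of these 64 genes, or 60.9%. The same was found in 34.4% of all 27025 genes of the table and in 37.4% of 6577 other detected protein-coding genes. By subunit it was in 15 of 24 small and 24 of 40 large subunit genes. The core letters CTTTCC within 10 bases of a start were in 10 of 64 members (15.6%) and in 1.30% of all genes. CCGGAAG, read on both strands over 250 bases before to 50 after the start, was in 26 of 64 (40.6%), against 9.93% of all genes and 23.0% of the other detected coding genes. TATAAA in the 50 bases before the start was in 1 of 64 members (1.56%), in 3.15% of all genes and in 1.70% of the other detected coding genes. These last 3 motifs were added after the first had been counted, and a match of letters is not a binding site.

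The ribosomal protein mRNAs were nearly all present at a high level. A TPM of at least 1 in every library was reached by 81 of 84 members, against 37.6% of the 22015 nuclear-encoded protein-coding genes. The same 81 members reached 10 and 66 reached 100 in every library. All 77 core genes were among the 81, so the 3 that were not detected were the paralogs Rpl39l, Rpl3l and Rpl10l. The median member stood at 176, 174 and 157 TPM in replicates 1, 2 and 3 (169 ± 10.7, SD, n = 3). The median of the 8281 detected nuclear-encoded coding genes was 6.84 ± 0.491 TPM (SD, n = 3). The 78 genes of the mitochondrial ribosome, with the prefixes Mrps and Mrpl, had a median of 5.57 ± 0.243 TPM (SD, n = 3), and 76 of them were detected. The members together held 1.83%, 1.66% and 1.54% of all TPM. All nuclear-encoded protein-coding genes together held 22.2% ± 1.21 of it (SD, n = 3). Of the TPM of nuclear-encoded protein-coding genes alone the members held 7.81%, 7.87% and 7.01% (7.56% ± 0.478, SD, n = 3). By expected counts, which are not scaled by length, the shares of the whole table were 1.47%, 1.56% and 1.33%. The order of the libraries thus differed between the scales, with replicate 3 the lowest on each of these 3.

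**Figure D1:**
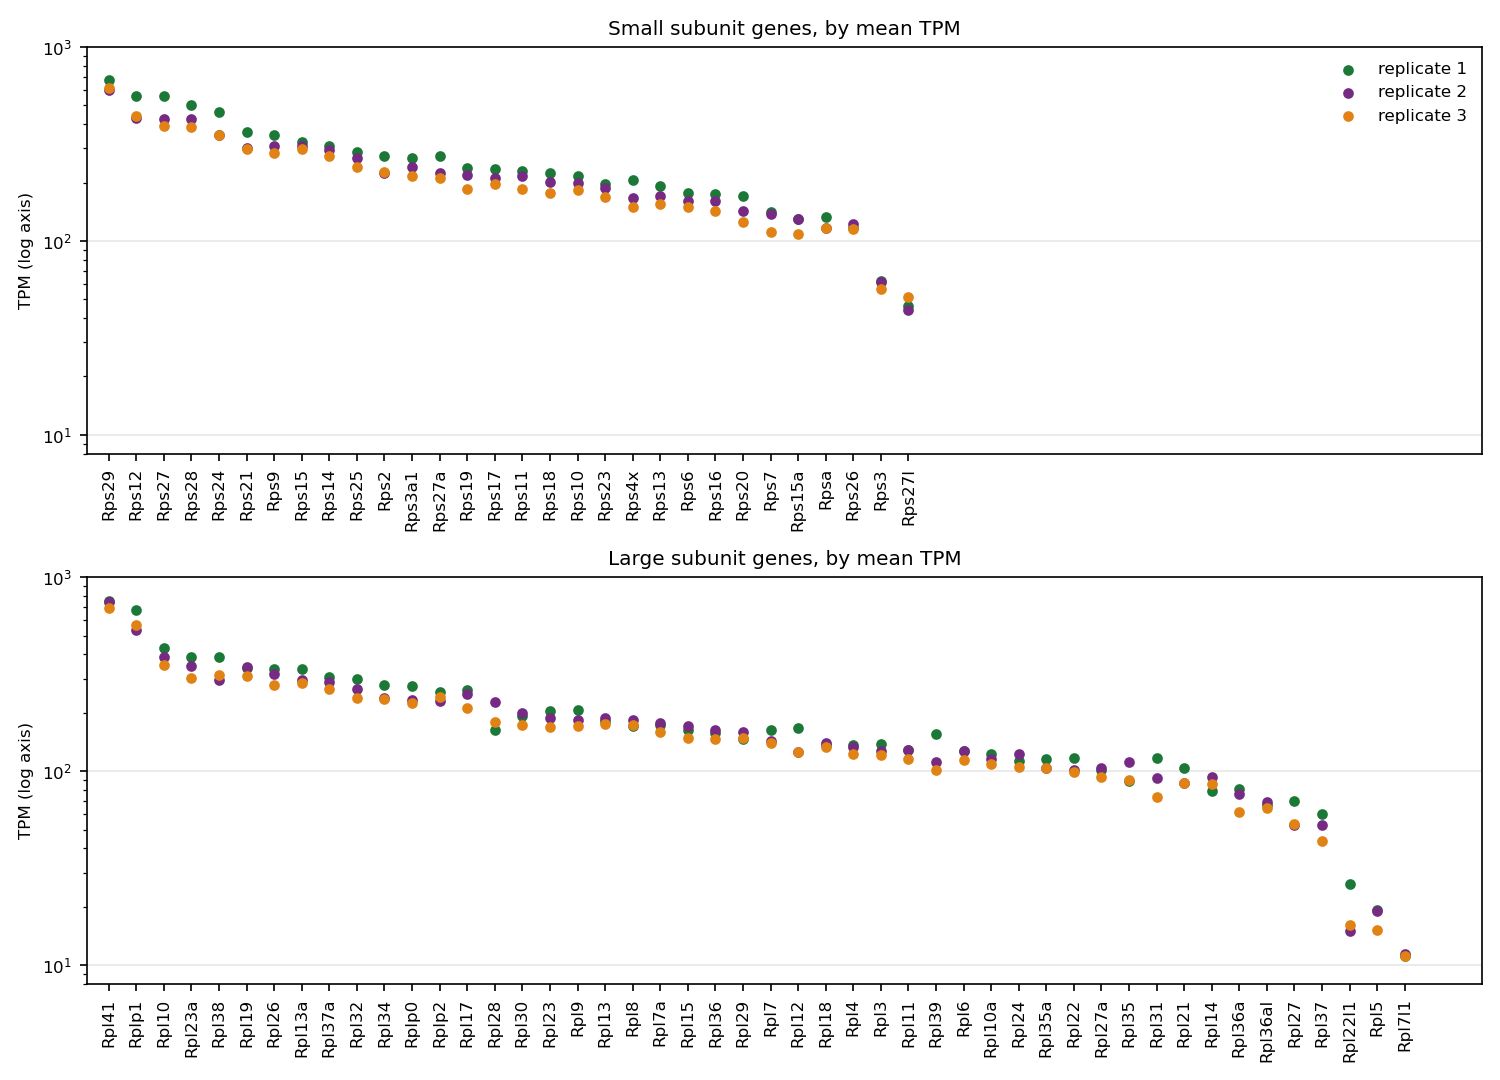
TPM (log axis) of the detected ribosomal protein genes in the 3 libraries, a few left out, with small subunit genes above and large subunit genes below, ordered by mean TPM and 1 point per library. The gene rows of the core genes, with no copies added, span 17.9 (Rpl5) to 733 TPM (Rpl41). For 78 of the 81 genes the highest library is less than 1.5 times the lowest.

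Levels of the core genes spanned 41.0 fold, although the proteins are used in near-equal numbers. This span is that of the gene rows alone, and it was 18.6 fold with near-identical copies added, as described further on. The middle of the 77 core genes was narrower: the quartiles were 124 and 268 TPM, and the 5th and 95th percentiles 70.3 and 463. Rpl5, at the lower end, stood apart, since the core gene next above it was 2.91 times as high. Among the small subunit genes Rps29, a zinc-binding protein of the head of the subunit (chr12:69157722-69159186), was highest with 679, 599 and 618 TPM. Rps12, part of the beak of the small subunit (chr10:23785183-23787275), had 561, 430.2 and 443 TPM. Rps27, also a zinc-binding protein, had 559, 426 and 391 TPM. In both Rps12 and Rps27 replicate 1 was above the other libraries. Rps29 exceeded both in every library, while Rps12 was above Rps27 in each library although their ranges overlapped. Rps28, which lies near the mRNA exit, followed at 436 ± 58.3 TPM (SD, n = 3) and Rps24, one of the genes mutated in human Diamond-Blackfan anaemia, at 388 ± 64.3. The lowest small subunit core gene was Rps3, which lines the mRNA entry channel, with 62.2, 61.6 and 56.7 TPM.

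Among the large subunit genes Rpl41, which encodes the shortest ribosomal protein (chr10:128548114-128549305), led with 755, 749.7 and 694 TPM. It stood above every other member in each library. Its whole coding sequence, given 5′ to 3′ from the GENCODE M21 transcript because the same 78 bases recur at another locus described further on, is as follows.
Rpl41: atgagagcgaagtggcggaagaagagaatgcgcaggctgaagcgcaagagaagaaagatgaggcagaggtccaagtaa

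Rpl10, which joins the large subunit late and in the cytoplasm (chrX:74270812-74273135), had 432, 386 and 351 TPM. Rpl23a, at the mouth of the exit tunnel, had a mean of 346 ± 41.5 TPM (SD, n = 3). Rpl38, the gene mutated in the Tail short mouse, had 332 ± 47.3. These 10 genes, 5 of each subunit with the stalk protein Rplp1, held 28.5% of the members' TPM. The lower end of the core large subunit genes was Rpl5, which carries 5S ribosomal RNA into the ribosome (chr5:107900502-107909005), with 19.3, 19.1 and 15.2 TPM. Rpl37 had 60.0, 52.6 and 43.5 TPM and Rpl27 70.2, 52.5 and 53.4 TPM. Rpl5 lay below these in every library by a margin far larger than its own spread. This holds for the gene rows alone. With near-identical copies added, as described further on, Rpl5 stood at 119 TPM and Rpl37 at 55.9.

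The stalk of the large subunit, which recruits the GTPases of translation, is built from Rplp0 at its base and dimers of the acidic proteins Rplp1 and Rplp2. Rplp1 had 679, 534 and 567 TPM. Rplp2 had 256, 231 and 242 TPM, and Rplp0 275, 232 and 226 TPM. Rplp1 was thus above both partners in every library, while Rplp0 and Rplp2 overlapped. By CPM, the expected counts scaled to library totals alone and so not corrected for length, Rplp0 was the highest of all members at 525 ± 37.0 (SD, n = 3) and Rpl10 came next at 429 ± 39.0. The order of the members therefore depended on the scale. Over the 77 core genes the rank correlation of mean level with effective length was -0.512 for TPM and 0.431 for CPM, a description across genes that share libraries. Of the 10 members highest by TPM, 8 had an effective length under 400 nt, against 30 of the 77 core genes.

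Small subunit genes were the higher by TPM, a difference that was not seen for the core genes by CPM. The small subunit median was 227, 206 and 184 TPM in replicates 1, 2 and 3, and that of the large subunit genes 157, 142 and 136. The difference of the medians of log2(TPM + 1), small minus large, was 0.52, 0.54 and 0.43 (0.50 ± 0.0584, SD, n = 3). The small subunit median was higher in 3 of 3 libraries. Small subunit genes were also shorter, with a median effective length of 433 nt against 531 nt. Without scaling by length the difference was 0.22, 0.17 and 0.11 on the log2(CPM + 1) scale, so the larger part of it was absent on that scale. For the core genes alone it was 0.38 on the TPM scale. By log2(CPM + 1) the core genes differed by 0.08, -0.03 and -0.06, with the small subunit the lower in 2 of 3 libraries. Which part of the difference belongs to length was not tested.

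Some paralogs of ribosomal proteins mark tissues in which the composition of the ribosome differs. The first 60 coding bases of 3 pairs, from GENCODE M21 transcripts with capitals at the bases where the partners differ, show how far reads can tell them apart.
Rpl36a: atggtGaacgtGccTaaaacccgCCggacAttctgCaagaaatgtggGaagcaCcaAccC
Rpl36al: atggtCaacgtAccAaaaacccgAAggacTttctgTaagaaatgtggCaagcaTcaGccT
Rpl39: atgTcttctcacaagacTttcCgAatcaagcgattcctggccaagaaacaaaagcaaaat
Rpl39l: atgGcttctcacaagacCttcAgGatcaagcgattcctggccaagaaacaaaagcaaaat
Rps27: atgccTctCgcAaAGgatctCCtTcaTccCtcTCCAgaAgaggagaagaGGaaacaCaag
Rps27l: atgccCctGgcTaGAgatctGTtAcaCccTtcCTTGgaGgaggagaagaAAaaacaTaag

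X-linked Rpl36a and its autosomal copy Rpl36al (chr12:69182731-69184083) were the one pair with gene rows at a near-equal level. Rpl36a had 80.7, 76.0 and 61.6 TPM and Rpl36al 67.3, 69.5 and 64.4 TPM. The ratio of Rpl36a to Rpl36al was 1.20, 1.09 and 0.957, so the order of the partners was not the same in all libraries. With near-identical copies added, as described further on, Rpl36a stood at 119, 110.4 and 105 TPM and Rpl36al at 67.5, 69.7 and 64.7, so Rpl36a was then the higher in every library. The coding sequences of both were 87.9% identical, with 24 bases as the longest identical run. In the other 3 expressed pairs the core gene was higher in every library. Rps27 exceeded Rps27l, in human a target of p53, by 12.0, 9.67 and 7.60 fold. Rps27l itself had 46.4, 44.0 and 51.4 TPM, and the ratio was highest in the library with the most Rps27. Rpl22 exceeded Rpl22l1, whose mRNA is repressed by the Rpl22 protein in the mouse, by 4.45, 6.71 and 6.21 fold. Rpl22l1 had 26.2, 15.0 and 16.0 TPM, and replicate 1 alone was high. Rpl7 exceeded Rpl7l1 by 14.6, 12.6 and 12.4 fold, and Rpl7l1 was the steadiest member by TPM at 11.2, 11.4 and 11.2.

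The 3 paralogs known from muscle or testis were near or at 0. Rpl3l, a gene of striated muscle, had 1, 1 and 3 expected counts. Rpl10l, which replaces X-linked Rpl10 in male meiosis in the mouse, had 0 counts in each library, where 3 counts would be 0.0963, 0.0263 and 0.0503 CPM. Rpl39l, expressed in testis, had 2, 18 and 18 counts, or 0.0642, 0.158 and 0.302 CPM. Its partner Rpl39 had 156, 111 and 102 TPM. The pair Rpl39 and Rpl39l shares a run of 38 identical coding bases.

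**Figure D2:**
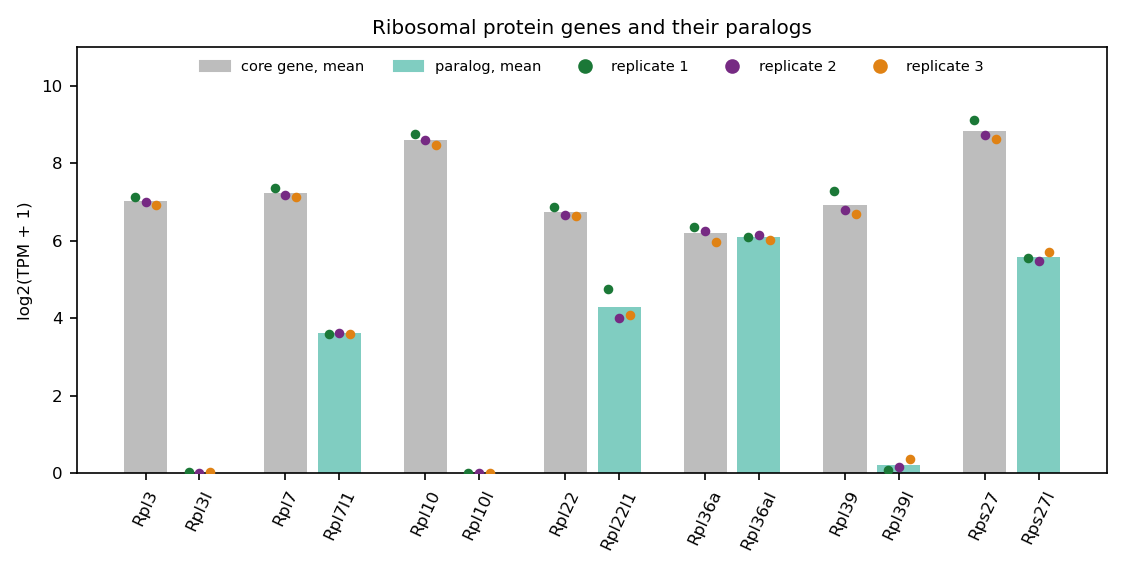
Level of each core gene (grey) beside its paralog (green) as log2(TPM + 1), with bars at the mean of the 3 libraries and 1 point per library. The gene rows of Rpl36a and Rpl36al, with no copies added, stand at a like level (72.8 and 67.0 TPM), Rps27l, Rpl22l1 and Rpl7l1 below their partners, and Rpl3l, Rpl10l and Rpl39l at or near 0.

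For each library the authors also deposited a second quantification, made from the reads with no stated alignment, and the members' levels were compared between both. The ratio of first to second TPM was 2.69 at the members' median and 2.55 at the median of detected coding genes, so the members followed the general shift. Of the 81 detected members 77 lay within 2 fold of the members' median ratio. The 4 that did not were Rpl12, Rps12, Rpl10 and Rpl5, or 4.94%, against 0.677% of 8275 detected coding genes measured from their own median. Rpl12, a protein at the base of the stalk, had a mean of 139.7 TPM in the first and 0.804 in the second quantification, 64.7 fold below what the members' median ratio gives. Rps12 had 478 and 6.12 TPM, 29.1 fold below. Rpl10 had 389.7 and 18.1 TPM, 8.02 fold below, and Rpl5 17.9 and 2.08 TPM, 3.20 fold below. In each of the 4 the second value was the low one in all 3 libraries. It was the lower one for every other detected member too, so only the size of the gap sets the 4 apart. Rpl7l1 and Rpl13a, next in order, deviated the other way, with log2 ratios at -0.44 and -0.38 relative to the members' median.

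Each of these 4 genes has a copy elsewhere in the genome that does not differ from it over the whole coding sequence. For Rpl12 this is Gm10275 (chr10:29698746-29699380), a transcribed processed pseudogene with 0 differences over 498 coding bases. For Rps12 it is Rps12-ps3 (chr19:59322290-59322783), annotated as protein-coding, with 0 over 399. For Rpl10 it is Rpl10-ps3 (chr9:50344201-50344968) with 0 over 645, and for Rpl5 it is Gm15500 (chr7:114705217-114706235) with 0 over 894. A read inside these bases matches the gene and the copy equally, and the spliced gene and the intronless copy can be told apart only outside them. In the second quantification the copies stood above the genes. Rps12-ps3 had 276, 206 and 141 TPM there, and 16.6, 6.76 and 8.94 in the first. Rpl10-ps3 had 171, 153 and 91.9 TPM there, and 17.2, 14.8 and 15.7 in the first. Gm10275 had a mean of 115 TPM there and 25.2 in the first. Identical copies are not particular to these genes. Rpl27, Rpl31, Rpl36a and Rps16, among others, also have a copy with 0 coding differences and lay within 2 fold of the members' median ratio. What sets the deviating genes apart was not tested.

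Rpl5 differed from Rpl12, Rps12 and Rpl10, since its copy held most of the signal in both quantifications. Gm15500 had 125, 86.1 and 91.3 TPM in the first, against 19.3, 19.1 and 15.2 for Rpl5. Rpl5 and its near-identical copies together stood at 144, 105 and 107 TPM (119 ± 22.1, SD, n = 3), 6.64 times the gene row alone. With the copies added Rpl5 was no longer the lowest core gene. Whether Gm15500 is itself transcribed in these cells was not tested.

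Copies of this kind were searched for every member among the annotated transcripts, at 95% identity over at least 80% of the coding sequence on the sense strand. They were found for 78 of 84 members, as 575 loci of which 556 are classed as pseudogenes. Rpl21 had most, with 57. Not all of the loci lie elsewhere in the genome. Gm28037 overlaps Rpl24 and Gm49383 overlaps Rpl36al in position, and such genes were counted as well. With all their loci added, Rpl24 went from 113 to 116 TPM and Rpl36al from 67.0 to 67.3. No copy was found for 6 members, among them Rps3 and the paralogs Rps27l, Rpl3l and Rpl39l. In the first quantification 58 of the 575 loci had a TPM of at least 1 in every library. Together the loci held 8.07% ± 0.953 of the summed TPM of members and copies in the first quantification and 14.0% ± 0.0992 in the second (SD, n = 3). With the copies added to each member, 0 of 81 members lay over 2 fold from the median ratio of the quantifications, the lowest core gene was Rpl37 at 55.9 TPM, and the core genes spanned 18.6 fold. Some members moved away from the median ratio: the log2 ratio relative to it went from -0.01 to -0.79 in Rpl28 and from 0.26 to -0.69 in Rpl27a. Rpl12 was at -0.89 with its copies added. Besides Rpl5, the gene rows of Rpl27, Rpl35, Rpl31, Rpl27a and Rpl36a rose by more than 1.5 times, to 163, 235, 202, 196 and 111 TPM. For Rpl35 the copy was Gm2000 (138 TPM), annotated as protein-coding, and for Rpl31 it was Rpl31-ps8 (108 TPM).

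The quantifications also divided Rpl41 and its copies to different degrees. The 78 coding bases printed above are identical in Gm10076 (chr14:105681828-105682211), which is classed as a lincRNA and differs by 4 bases over 383 aligned. Gm10076 was at 365, 249.9 and 308 TPM in the first quantification and at 0.831, 0.428 and 0.214 in the second. Gm10443, a copy of Rps28, was at 149, 85.2 and 130.2 TPM in the first and listed at 0 in the second. Gm14303, a copy of Rps29, was at 169, 2.38 and 2.56 TPM in the first and at 0 in the second. With its copies added Rps29 stood at 847, 601 and 621 TPM, so replicate 1 changed most. Levels of Rpl41, Rps28 and Rps29 above thus leave out the reads that the first method gave to these rows.

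**Figure D3:**
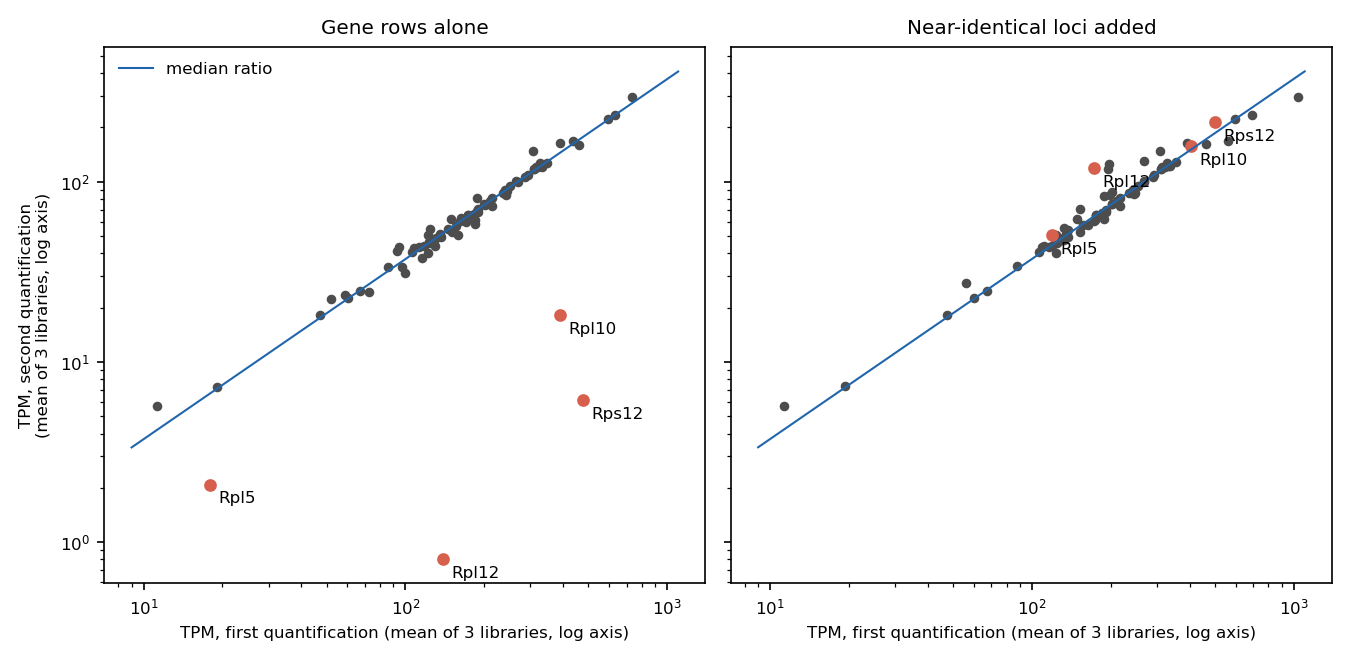
Mean TPM of each detected ribosomal protein gene in the first (horizontal) and second quantification (vertical), both on log axes, for the gene rows alone (left) and with near-identical loci added (right), with the line at the members' median ratio. Rpl12, Rps12, Rpl10 and Rpl5 (red) lie 3.20 to 64.7 fold below the line on the left and within 2 fold of it on the right.

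Most of the members' RNA was assigned to coding transcripts. Of the members' TPM 93.2% ± 0.481 was in transcripts annotated as protein-coding, 3.53% ± 0.463 in retained-intron transcripts and 2.43% ± 0.166 in transcripts annotated as targets of nonsense-mediated decay (SD, n = 3), over 495 transcripts. For 66 of 81 members under 5% was in the latter classes together, and the median was 0.223%. In 12 members the share was 10% or more. Rps20, a small subunit protein, had 91.6%, 90.3% and 89.4% in retained-intron transcripts. Rps16 had 86.1%, 85.8% and 83.5%. Rpsa, the gene also known as the laminin receptor, had 64.0%, 57.3% and 58.6%, nearly all of it in 1 transcript of the nonsense-mediated decay class. These 3 genes stood above 50% in each library, and the libraries differed little. Rpl13a, which in human monocytes is released from the ribosome to silence inflammatory mRNAs after interferon-gamma, had 55.4%, 53.9% and 44.6%, divided between retained introns (29.8%) and decay transcripts (21.5%).

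The classes are those of the annotation and rest on how the model divided reads between overlapping transcripts. In Rps20 the retained-intron transcript of 582 nt shares a run of 386 bases with the coding transcript, which is 3706 nt long. In Rps16 the retained-intron transcript of 518 nt shares a run of 452 bases with a coding transcript of 1109 nt. In 6 members, among them Rps16, Rps20 and Rpsa, the transcript with the highest TPM was not a coding one, and in none of the 6 did it contain the whole coding sequence. The second quantification gave Rps20 91.4%, Rps16 90.4%, Rpsa 74.7% and Rpl13a 54.0%. Shares of other members were less stable between libraries. Rpl12 had 48.7%, 21.8% and 29.5% in the first quantification. Its mean of 65.1% in the second is a share of very little, since the gene row had a mean of 0.804 TPM there.

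**Figure D4:**
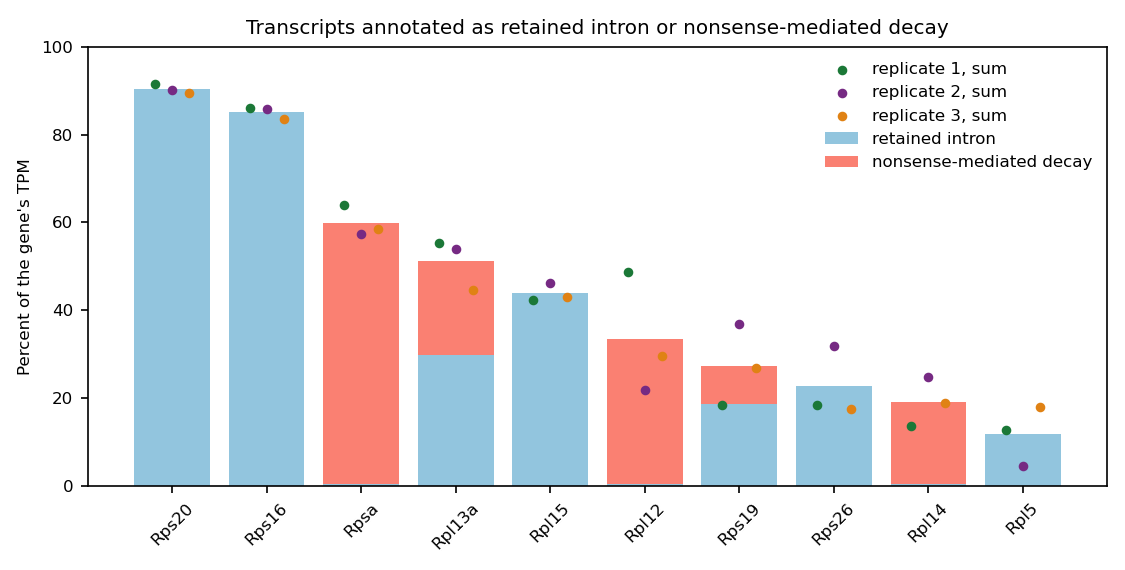
Percent of the gene's TPM in transcripts annotated as retained intron (blue) or nonsense-mediated decay (red) for 10 of the 12 ribosomal protein genes with 10% or more, with bars at the mean and points for the sum in each library. Rps20 and Rps16 lie above 80% in all libraries, while the points of Rpl12 spread from 21.8% to 48.7%.

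Small nucleolar RNA genes lay inside 30 of the 84 members on the same strand (35.7%), 58 in all. Of the 8281 detected nuclear-encoded coding genes 190 were such hosts (2.29%). Rpl4 held 5 of these genes and Rpl13a held 4. The median level was 177 TPM over the 30 core hosts and 187 over 47 other core genes. Of the 58 small nucleolar RNA genes 3 reached a TPM of at least 1 in every library. The sample labels give a size range of 250 to 400 for each library. The share of all small nucleolar RNA genes that reach this level is not given here, and what sets the number was not tested.

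Variation of the members' levels between the 3 libraries was small, but its median coefficient was above that of other well-expressed genes. All 82 members with at least 10 counts on average differed between libraries in a Poisson dispersion test with Benjamini-Hochberg adjustment over all genes tested. The same test called 62.1% of 14037 genes, 61.9% of 11804 nuclear-encoded coding genes and 82.2% of the 5819 coding genes with at least 1000 counts on average. The members had a median of 11886 counts and the coding genes with at least 1000 a median of 3513, so even these are not matched for counts. At such counts small differences are called, and nothing particular to the members is read from their count. Expected counts are model estimates, and their error beyond counting is not part of the test. Without replicate 2, the deepest library, 57 of 82 members were called, against 37.9% of all genes tested. The biological coefficient of variation is the relative spread beyond counting error, estimated here with edgeR. Its median was 0.116 over members, 0.131 over coding genes tested and 0.105 over those with at least 1000 counts. The quartiles were 0.109 and 0.123 over members, and 0.0975 and 0.118 over coding genes with at least 1000 counts. For 78 of 81 detected members the highest TPM was less than 1.5 times the lowest, as it was for 89.4% of the 8281 detected coding genes. The median of this ratio was 1.20 over members and 1.21 over coding genes. The 3 members above that limit were Rpl22l1, Rpl31 and Rpl39.

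Among the members the spread was largest in the near-absent paralog Rpl39l (0.510) and in Rpl22l1 (0.172). Rpl28, at 164, 227 and 179 TPM, had a coefficient of 0.156, and replicate 2 alone was high. Rpl5 had 0.155, Rpl36a 0.141 and Rpl36 0.137. Rpl28, Rpl5 and Rpl36a have identical copies elsewhere, while none was found for Rpl39l, Rpl22l1 and Rpl36. Rpl38, among the steadiest members by this coefficient, has an identical copy too, and a link of copies with spread was not tested. The ranking depends on the scale. By TPM Rpl38 had 386, 297 and 312, the highest 1.30 times the lowest, above the members' median of 1.20 for that ratio. The smallest coefficients were those of Rpl7l1 (0.0960), Rpl38 (0.0965), Rpl22 (0.0968) and Rpl35a (0.0976), and all 3 stalk genes were below the members' median, Rplp0 at 0.109 and Rplp2 at 0.0990 among them.

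Most members shared 1 order of the libraries. On the scale of log2 CPM with TMM factors, the median member deviated from its own mean by -0.02, 0.15 and -0.12 in replicates 1, 2 and 3. The medians of coding genes with at least 1000 counts were -0.01, 0.02 and -0.01. Replicate 3 was the lowest library for 64 of 82 members (78.0%), against 32.0% of all coding genes tested and 33.4% of those with at least 1000 counts. Replicate 2 was the highest for 71 of 82 (86.6%), against 36.8% and 40.7%. Both subunits had this order, with median deviations of 0.00, 0.14 and -0.14 for 32 small and -0.03, 0.17 and -0.11 for 50 large subunit genes. The members share libraries and a scaling, so their counts describe these 3 libraries and are not a test.

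On the TPM scale the order of the first 2 libraries turned. Replicate 1 was highest for 62 of 81 members, but also for 63.3% of 8281 detected coding genes. Replicate 3 was lowest for 62 of 81, against 21.5% of coding genes. The median coding gene was itself shifted by -0.15 in replicate 2 relative to the mean of the others on the log2 TPM scale, where the members stood at 0.01. Relative to that shift the members were 0.16 higher in replicate 2, and 0.20 higher by CPM. Taken against the coding genes in the same way, the members' median in replicate 3 was 0.16 below replicate 1 and 0.22 below replicate 2 by TPM. By the TPM of the second quantification it was 0.23 and 0.30 below. Replicate 3 was therefore low for these genes on each scale.

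**Figure D5:**
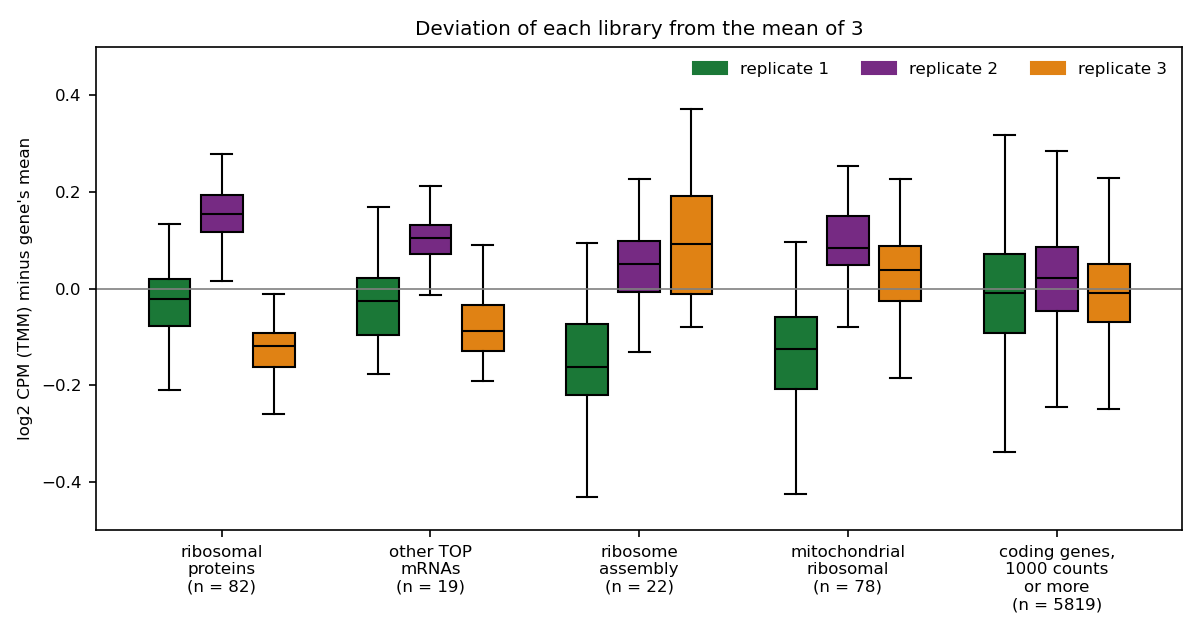
Deviation of each library from the gene's mean over 3 libraries in log2 CPM (TMM factors), for ribosomal protein genes, other TOP mRNAs, ribosome assembly genes, mitochondrial ribosomal protein genes and coding genes with at least 1000 counts. Boxes span the quartiles with a line at the median, whiskers reach the farthest gene within 1.5 box lengths, and genes beyond are not drawn. Ribosomal proteins (medians -0.02, 0.15 and -0.12) and other TOP mRNAs (-0.03, 0.11 and -0.09) have a like order of libraries.

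Genes with related roles were examined from lists. Fau (419 ± 31.6 TPM, SD, n = 3) and Rack1 (97.4 ± 11.8), ribosome components that the symbol rule leaves out, were within the range of the members. Fau encodes a ubiquitin-like protein fused to Rps30, and Rack1 is a scaffold on the small subunit. Both were highest in replicate 2 by log2 CPM. Of 19 other mRNAs of the TOP class, chiefly translation factors, all passed the detection limit, and their median was 58.0 TPM. The elongation factor Eef1a1 led at 1284 ± 54.1 TPM, with Tpt1 at 951 ± 178 and Vim at 806 ± 77.5 next, and the lowest was Eif3l at 14.7 ± 0.208 (SD, n = 3). Their median deviations were -0.03, 0.11 and -0.09 in replicates 1, 2 and 3. Replicate 2 was the highest for 16 of 19, against 36.8% of coding genes tested and 40.7% of those with at least 1000 counts. The dispersion test called 18 of 19, against 62.1% of all genes tested and 82.2% of coding genes with at least 1000 counts. The list had a median of 7401 counts, so nothing particular to it is read from the number called.

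Lists of genes that build or regulate the ribosome had medians far below that of its proteins. Of 22 ribosome assembly genes 18 passed the detection limit, and the median over the list was 4.42 TPM. The highest was nucleolin (Ncl) at 30.1 ± 0.594 TPM, followed by Eif6, which keeps the subunits apart, at 21.2 ± 2.25 and Nhp2 at 13.7 ± 1.02 (SD, n = 3). The lowest was Bysl at 0.710 ± 0.0436. Their median deviations were -0.16, 0.05 and 0.09, and replicate 3 was lowest for 1 of 22 genes, against 32.0% of coding genes tested. Mitochondrial ribosomal protein genes had -0.12, 0.08 and 0.04. Of 14 regulators of ribosomal protein translation 13 passed it, and their list median was 3.61 TPM. Larp1, which binds the TOP tract, led at 32.7 ± 0.637 TPM, ahead of the mTOR activator Rheb at 17.8 ± 1.34 and Larp4 at 10.3 ± 1.09 (SD, n = 3). Mlst8, a subunit of the mTOR complexes, was lowest at 0.520 ± 0.177 TPM. Their deviations were 0.00, 0.02 and 0.00, and differences between the lists were not tested. All 6 chaperones of single ribosomal proteins were detected, from Grwd1 at 1.30 ± 0.355 to Bccip at 9.63 ± 0.541 TPM, and so were all 8 genes of ribosome rescue, from Pelo at 1.34 ± 0.252 to Tcf25 at 32.0 ± 0.366 TPM (SD, n = 3).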

How the data were processed

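Cytosolic, ribosomal RNA-depleted total RNA of 3 libraries of 1 group was analysed, and no comparison between groups is possible. The submitters' listing names mm10 and GENCODE M21, and gives no aligner, tool version or strand setting, so overlapping and antisense genes remain uncertain. The authors deposited expected counts per gene and transcript, which are model estimates that divide reads between similar sequences and need not be whole. TPM was deposited beside them, per the file headers, as a value divided by effective length and scaled to a fixed sum. FPKM was deposited as well, per the file headers. The authors also deposited lower and upper bounds of each TPM, handled here as signal values, which enter no result. The second quantification is a deposited table of transcripts with kallisto's columns, whose TPM was summed per gene here.

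Members were found by symbol and gene class. The members, the lists of related genes and the tests were chosen with earlier results of these data known. The genes named were the 10 highest and 10 lowest by TPM, all paralog pairs, the 6 largest and 4 smallest coefficients of variation, the 6 largest ratios between quantifications, the 5 largest shares of retained-intron or decay transcripts and the stalk genes. From the lists the highest and the lowest members were named. Other genes were named after their values were seen. The pair of Rps4x and Rps4l was not analysed here, and a few genes that the rule names are not reported here.

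Expected counts were rounded. Genes with at least 10 counts on average entered a chi-square test against the Poisson distribution with 2 degrees of freedom and TMM-adjusted library sizes, with Benjamini-Hochberg adjustment at 0.05. Dispersions came from edgeR 4.0.16 in R 4.3.3, with an intercept only. Both steps were tested on simulated data. DESeq2 1.42.0 gave alternative size factors. Log2 CPM had a prior count of 1. Near-identical loci were found with BLAST 2.17.0 among GENCODE M21 transcripts. Other values came from Python 3.11.15, numpy 2.4.6 and pandas 2.3.3. TPM keeps no depth, and intervals for counts cover counting error only. No value column lacked a sample.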

Additional observations from a re-analysis of the deposited data

How the results depend on the processing

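The number of detected members was 80 to 81 at TPM thresholds of 0.5 and 10, by FPKM, by the second quantification and without each replicate, and the member lost by the second was Rpl12. The members' share of TPM was 0.596% by the second quantification, 7.56% with coding genes as the denominator and 1.83% with near-identical loci added. It was 1.60% to 1.75% when each replicate was left out. Their share of expected counts was 1.74% of those of coding genes, and 1.40% to 1.52% without each replicate. The median member stood at 322 by FPKM, 60.1 TPM by the second quantification, 183 for core members and 188 with near-identical loci added, and at 166 to 175 without each replicate. Small subunit genes stayed above large subunit genes except for core members by CPM, where the difference was -0.00. It was otherwise 0.38 for core members, 0.39 without members whose mean TPM was under 1, 0.91 by list means, 0.32 with near-identical loci added, 0.17 on the CPM scale and 0.48 to 0.53 without each replicate. The alternatives with near-identical loci and with CPM were chosen after seeing the data. The members' median deviation of replicate 2 was 0.17 to 0.27 under other count scalings and filters and 0.01 by log2 TPM. The number varying beyond counting error was 81 to 82 under other scalings and filters, and 57 to 79 without each replicate. Over all genes the test called 62.1%, 43.4% with no filter, and 37.9% to 49.5% without each replicate. The members' median coefficient of variation was 0.102 to 0.129 without each replicate. No paired analysis was possible because the study has 1 group.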
